A study of Mus musculus with 23 samples.

Results

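Sil1 is the nucleotide exchange factor that releases ADP from BiP, the Hsp70 chaperone of the endoplasmic reticulum (ER). The present account follows Sil1 and 9 other genes of ER protein folding in mouse liver after inhalation of particles: Hspa5 (BiP), Hsp90b1, Dnajb9, Dnajb11, Xbp1, Herpud1, Pdia4, Calr and Sdf2l1. The 10 genes were selected by gene symbol, and each was represented by 1 feature among the 18688 features with a listed gene on the array. They had been chosen with the difference between the particle group and the air group in view. Sil1 was included because of the comparison of carbon black with air. The group differences of these genes are therefore given as a description, without a test. All mice were female C57BL/6 mice of 12 to 13 weeks, with no transgene or deletion named in the labels. Air mice (n = 8) had inhaled filtered air, carbon black (CB) mice (n = 8) Printex carbon black and diesel exhaust particle (DEP) mice (n = 7) the reference material NIST 2975. Particles were given at 20 mg/m3 for 90 min on 4 days, and the labels place sampling 90 min after exposure. The methods of the study state another age and another time of sampling, and the labels were followed here. Each of the 23 arrays carried the liver RNA of 1 mouse in the Cy5 channel and a universal mouse reference RNA in the Cy3 channel, and no array had the dyes swapped.

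Proteins that enter the ER are folded with the help of BiP, which binds unfolded chains in its ADP state and lets them go after nucleotide exchange. DnaJ proteins deliver clients to BiP and start ATP hydrolysis, and Sil1 closes the cycle. When unfolded proteins accumulate, the transcription factors Xbp1 and Atf6 raise the transcription of chaperone genes through the ER stress response element (ERSE), a bipartite sequence. The hepatocyte secretes most plasma proteins and depends heavily on this machinery. The 9 hepatocyte markers measured were flagged present on all arrays. Whole liver was used, so fewer cells of a type and less RNA per cell cannot be told apart.

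The promoters of 9 of the 10 genes were matched in RefSeq (GRCm38.p6) over 250 bases before and 50 after the start of the gene. Both strands were searched for exact matches, with no mismatch allowed. ERSE, that is CCAAT, 9 bases of any kind and CCACG, was found in Hspa5, Hsp90b1 and Calr, that is in 3 of 9 promoters against 0.119% of 32851 mouse promoters. The related element ERSE-II, that is ATTGG, any 1 base and CCACG, was found in Herpud1 and Dnajb11, in 2 of 9 against 0.0365%. The bare CCAAT box, which lies inside both elements, was found in 8 of 9 against 37.4%, and in Xbp1 no match to any motif was found. The sequence TGACGTG was found in Hspa5, in 1 of 9 against 2.01%. No exact match to ERSE or ERSE-II was found in Dnajb9, Xbp1, Pdia4 and Sdf2l1, and elements with a mismatch were not searched for. The matches to ERSE and ERSE-II are written 5′ to 3′ along the strand of the gene, with the fixed letters of the element in capitals.
Hspa5 ERSE, chr2:34772005-34772063, plus strand: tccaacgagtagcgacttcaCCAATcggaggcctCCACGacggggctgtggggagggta
Hsp90b1 first ERSE, chr10:86705618-86705676, minus strand: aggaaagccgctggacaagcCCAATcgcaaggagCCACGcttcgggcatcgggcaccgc
Hsp90b1 second ERSE, chr10:86705513-86705571, minus strand: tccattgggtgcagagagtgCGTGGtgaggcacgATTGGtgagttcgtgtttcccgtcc
Calr ERSE, chr8:84847055-84847113, minus strand: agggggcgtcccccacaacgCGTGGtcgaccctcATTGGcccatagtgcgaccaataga
Herpud1 ERSE-II, chr8:94386357-94386407, plus strand: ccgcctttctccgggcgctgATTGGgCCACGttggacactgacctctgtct
Dnajb11 ERSE-II, chr16:22857852-22857862, plus strand: ATTGGcCCACG
The Hspa5 match ended 47 bases before the start of the gene and the Herpud1 match 42 bases before it. The Dnajb11 match lay 8 to 18 bases after the start. In Calr and in the second Hsp90b1 match the element read on the opposite strand, so that it appears as CGTGG followed by ATTGG.

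Median Cy5 signals of the arrays lay between 262 and 549, and 13.8% to 41.9% of the listed features were flagged absent in Cy5. Between 59 and 422 features per array reached the scanner maximum of 65535 in Cy5. Of the 10 genes, Hspa5 was saturated in Cy5 on 2 arrays (air 53 and DEP 51) and Herpud1 on 3 (air 49, DEP 51 and DEP 57), where their ratio is a lower bound. Mice are named by the numbers of their labels. Pdia4 was flagged absent on 1 array (DEP 55), and the other genes were flagged present on all 23 arrays. Some spots of these genes were dim in both channels at once, at least 2-fold below the median of their feature. This applied to 18 of 230 spots (7.83%), against 1.47% of the spots of all listed features. They were 5 spots of Pdia4, 3 each of Sil1 and Sdf2l1, 2 each of Hspa5, Dnajb11 and Xbp1 and 1 of Calr.

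In the air group, 7 of the 10 genes were higher in liver than in the reference RNA, 2 were lower and Sdf2l1 did not pass the test. Herpud1, a membrane protein that gathers the degradation machinery at the ER, had the highest log2 ratio of liver to reference, 3.28 ± 0.41 (SD, n = 8; adjusted p = 3.45e-18 from limma). Dnajb9, a DnaJ partner of BiP that holds the stress sensor Ire1 inactive, followed at 2.07 ± 0.46. Xbp1, a transcription factor needed by secretory cells, was at 1.13 ± 0.26 and Sil1, on chromosome 18, at 1.03 ± 0.13. Calr, the lectin chaperone of glycoproteins, was at 0.61 ± 0.16, but with the deposited ratios at 0.07 (adjusted p = 0.450 from limma). Pdia4, a disulfide isomerase, was at 0.44 ± 0.30. Dnajb11, a DnaJ partner that binds clients directly, was at 0.35 ± 0.19, but at −0.20 with the deposited ratios. Hsp90b1, the Hsp90 of the ER, was at −0.56 ± 0.14 and Sdf2l1, which forms a complex with Dnajb11, at −0.12 ± 0.43 (adjusted p = 0.445 from limma). With the deposited ratios Sdf2l1 was at −0.42 and passed (adjusted p = 0.00484 from limma). Hspa5 was at −0.29 ± 0.35 (adjusted p = 0.0249 from limma), but at 0.0085 with median centring in place of loess. In the order of these ratios, Xbp1 and Sil1, Calr and Pdia4, Pdia4 and Dnajb11, Sdf2l1 and Hspa5, and Hspa5 and Hsp90b1 differed by less than the larger SD of the pair. These ratios order differences from the reference, not levels, and the liver and the Cy5 dye cannot be told apart in them. Of all features 65.9% passed the same test, 34.4% higher and 31.5% lower in liver, so 9 of 10 is read against a majority.

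The log2 ratio of Sil1 was lower in the particle groups than in the air group. In the air group it ran from 0.83 (mouse 835433) through a median of 1.07 to 1.16 (mouse 49). In the CB group it ran from 0.48 (mouse 445) through 0.64 to 0.78 (mouse 59). In the DEP group it ran from 0.52 (mouse 835435) through 0.71 to 1.05 (mouse 51). With these loess ratios every CB mouse was below every air mouse, while DEP mice 51 and 57, at 1.05 and 0.98, lay within the air range. With the deposited ratios the groups overlapped: air 835433, at 0.13, lay below CB 59 at 0.28 and CB 48 at 0.21. The values of all 10 genes are shown in the plot of log2 ratios by mouse. For scale, 0.0589% of all features had no overlap between CB and air mice and 0.0107% none between DEP and air mice. Sil1 was included because of the comparison of CB with air, so these shares are no test of its separation.

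**Figure D1:**
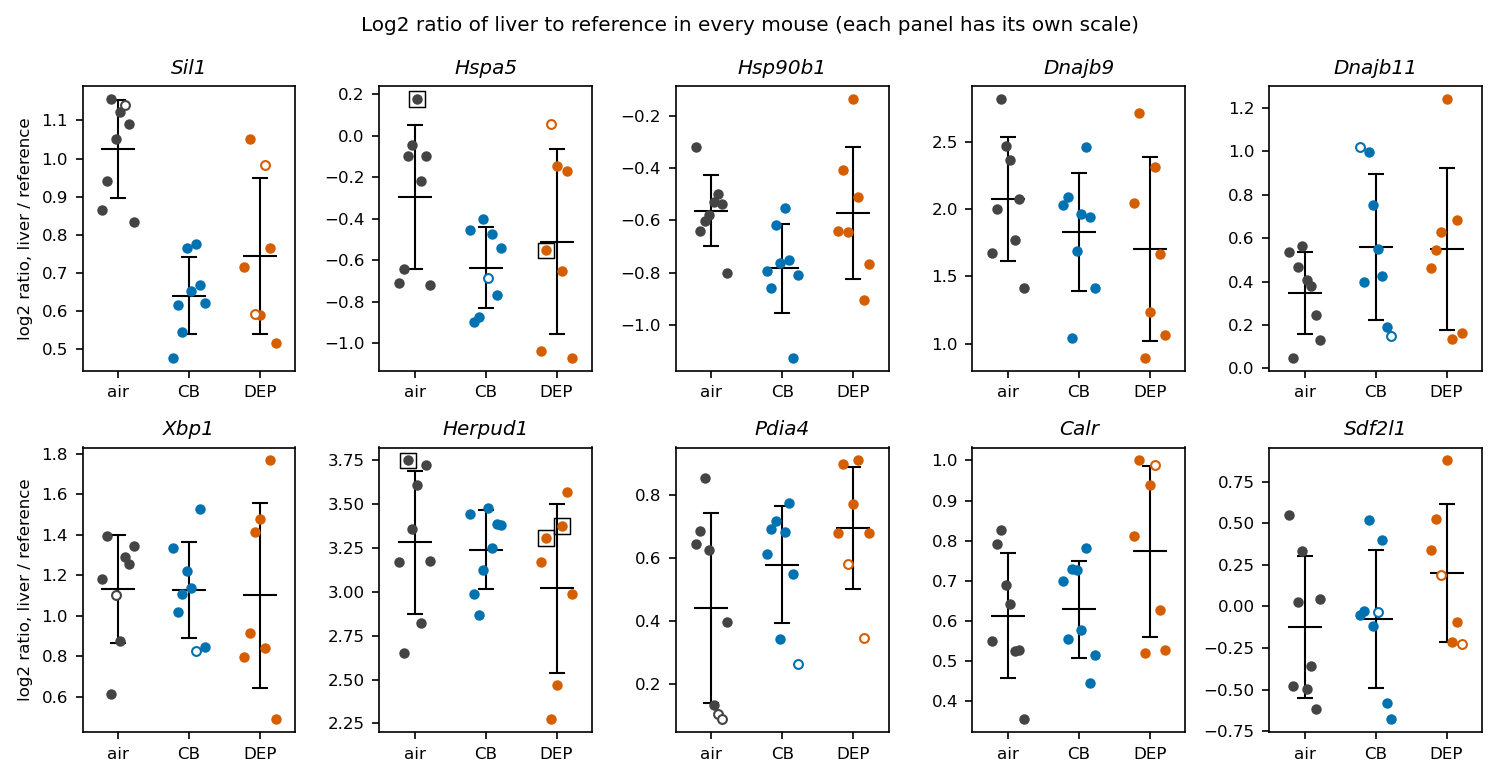
Log2 ratio of liver to reference for 10 genes of ER protein folding (vertical axes, own scale in each panel) in air (n = 8), CB (n = 8) and DEP (n = 7) mice. Points are single mice, horizontal lines with bars are the mean ± SD, open points are spots dim in both channels and squares mark Cy5 saturation. In these loess ratios the CB mice of Sil1 end at 0.78 and the air mice begin at 0.83, which the deposited ratios do not show. In the other 9 panels the groups overlap.

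The mean Sil1 ratio was 1.03 ± 0.13 (SD) in air, 0.64 ± 0.10 in CB and 0.75 ± 0.21 in DEP mice. The difference to air was −0.38 after CB (standard error 0.08) and −0.28 after DEP (standard error 0.09) on the log2 scale. Both differences are measured against the same 8 air mice. Leaving out 1 mouse at a time gave −0.41 to −0.36 after CB and −0.33 to −0.24 after DEP. Within the first, second and last round of exposure the CB difference was −0.55, −0.38 and −0.34. The DEP difference was −0.44, −0.40 and −0.13 in the same rounds. The first round held 2 air mice and 1 mouse of each particle group. The second held 4 air, 6 CB and 2 DEP mice, and the last 2 air, 1 CB and 4 DEP mice. With median centring the CB difference was −0.64 and the DEP difference −0.42.

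The channels behind the Sil1 ratio were also compared, each quantile normalized over the arrays. In mouse air 54 the Sil1 spot was dim in both channels, with a Cy5 signal of 2237 and a Cy3 signal of 828, although its ratio was 1.14. With this mouse the CB minus air difference of Cy5 alone was 0.03 (standard error 0.39), and that of Cy3 alone was 0.32 (standard error 0.36). Without the spots dim in both channels, a rule added after the data were seen, the Cy5 difference was −0.34 (standard error 0.11). The Cy3 difference was then −0.04 (standard error 0.08), and the ratio differed by −0.37 (7 air and 8 CB mice). After DEP the corresponding Cy5 difference was −0.21 (standard error 0.09) and the Cy3 difference 0.01 (standard error 0.09), over 7 air and 5 DEP mice. With all spots the DEP minus air difference was −0.30 in Cy5 (standard error 0.49) and −0.05 in Cy3 (standard error 0.46). Without the dim spots the difference was larger in Cy5 than in Cy3 in both comparisons. With all spots the CB difference was larger in Cy3. The source of the Sil1 difference was not tested.

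**Figure D2:**
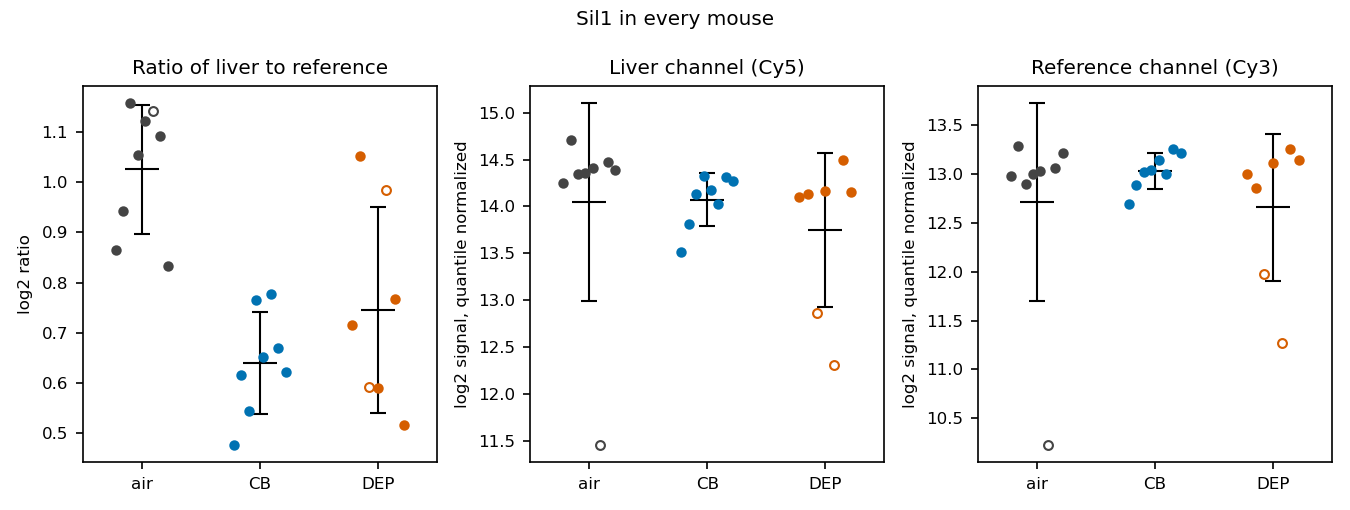
Sil1 in every mouse as the log2 ratio (left), the log2 liver signal (Cy5, middle) and the log2 reference signal (Cy3, right), the signals quantile normalized. Points are mice, open where the spot was dim in both channels, and lines with bars are the mean ± SD. Air 54 lies far below the other air mice in both channels but at 1.14 in the ratio.

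Hspa5, the chaperone on which Sil1 acts, had a wider spread. Its log2 ratio ran from −0.72 through a median of −0.16 to 0.18 in air mice and from −0.90 through −0.61 to −0.40 in CB mice. In DEP mice it ran from −1.07 through −0.55 to 0.06. In air, 3 mice (442, 443 and 835433) lay at −0.71, −0.64 and −0.72, inside the CB range. The other 5 lay at −0.22 or higher, above all CB mice. The highest DEP value, 0.06, came from mouse 55, whose Hspa5 spot was dim in both channels (Cy5 1806, Cy3 1583). The difference to air was −0.34 after CB (standard error 0.16) and −0.22 after DEP (standard error 0.17). Within the first, second and last round it was −0.22, −0.42 and −0.13 after CB, with 1 CB mouse each in the first and last. After DEP it was 0.29, −0.33 and −0.20 in these rounds, and the first of these is DEP 55 alone. Without the spots dim in both channels the DEP difference was −0.31. In single channels the CB minus air difference of Hspa5 was −0.24 in Cy5 (standard error 0.29) and 0.03 in Cy3 (standard error 0.20). Without the dim spots, of which CB 58 held 1, it was −0.04 in Cy5 (standard error 0.23) and 0.19 in Cy3 (standard error 0.13).

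Of the other chaperones and DnaJ proteins, Hsp90b1 was at −0.56 ± 0.14 in air, −0.78 ± 0.17 in CB and −0.57 ± 0.25 in DEP mice. The Hsp90b1 difference was −0.22 after CB (standard error 0.10) and −0.01 after DEP (standard error 0.10). Dnajb9 differed by −0.24 after CB (standard error 0.24) and by −0.37 after DEP (standard error 0.25). Within the 3 rounds the DEP difference of Dnajb9 was −1.29, −0.54 and 0.19. The DEP mice ran from 0.89 to 2.72 and covered nearly the whole air range of 1.42 to 2.82. Dnajb11 had a higher mean in both particle groups, by 0.21 after CB (standard error 0.15) and by 0.20 after DEP (standard error 0.15). Its highest air value was 0.57, and 3 CB and 3 DEP mice lay above it. Within the 3 rounds the CB difference of Dnajb11 was 0.79, 0.06 and −0.04. The first of these is CB 445 alone and the last CB 835436 alone, and both spots were dim in both channels. With median centring the CB difference of Dnajb11 was −0.15, and in Cy5 alone it was −0.27 (standard error 0.36). Without the spots dim in both channels it was 0.24 in Cy5 (standard error 0.18) and 0.00 in Cy3 (standard error 0.07). The ratio then differed by 0.20, over 8 air and 6 CB mice. The DEP difference of Dnajb11 was 0.09 without DEP 56 and 0.31 with the round as a block. Sdf2l1 differed by 0.05 after CB (standard error 0.19) and by 0.32 after DEP (standard error 0.20), and by −0.26 and 0.24 with median centring. In single channels the DEP minus air difference of Sdf2l1 was −0.41 in Cy5 (standard error 0.40) and −0.75 in Cy3 (standard error 0.31). Without the spots dim in both channels it was 0.04 in Cy5 (standard error 0.32) and −0.35 in Cy3 (standard error 0.16). The ratio then differed by 0.41, over 8 air and 5 DEP mice.

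For the genes of glycoprotein folding, disulfide formation and degradation the groups overlapped throughout. Calr differed by 0.02 after CB (standard error 0.09) and by 0.16 after DEP (standard error 0.09), and Pdia4 by 0.14 (standard error 0.12) and 0.25 (standard error 0.12). With median centring both turned to lower after CB, at −0.30 and −0.15. In air the Pdia4 values fell apart into 0.09, 0.11 and 0.14 in 3 mice and 0.40 to 0.85 in the other 5, and the spots of the lowest pair were dim in both channels. Herpud1 differed by −0.04 after CB (standard error 0.18) and by −0.26 after DEP (standard error 0.18). The DEP difference rested in part on mice 55 and 56, at 2.27 and 2.47, both below the lowest air value of 2.65. Within the 3 rounds the DEP difference of Herpud1 was −0.86, −0.46 and −0.14. Xbp1 differed by −0.01 after CB (standard error 0.16) and by −0.03 after DEP (standard error 0.16). The Xbp1 transcript is activated by splicing, which this feature was not stated to resolve.

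**Figure D3:**
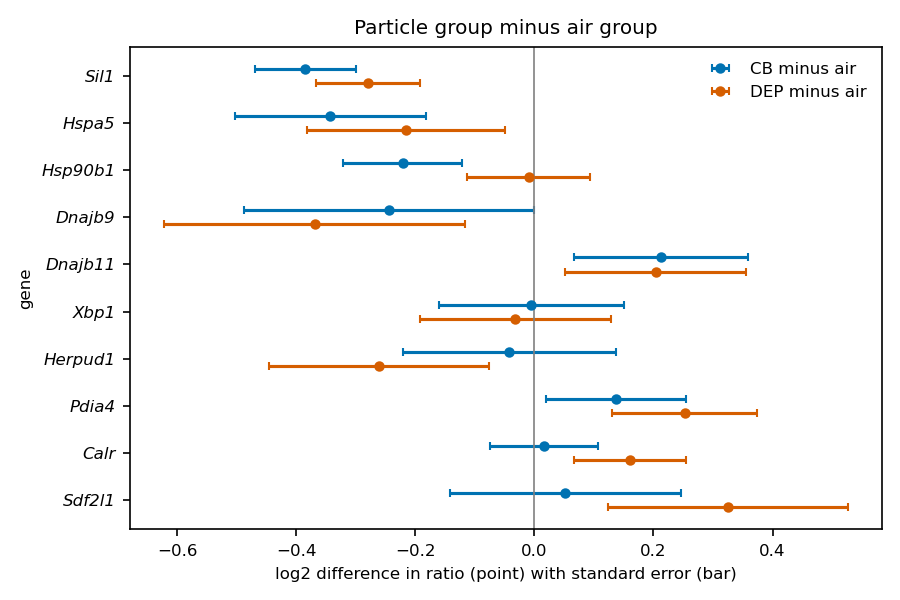
Difference in log2 ratio between each particle group and the air group for the 10 genes (points, horizontal axis) with the standard error of the limma fit (bars). Sil1 and Hspa5 lie lowest after CB, at −0.38 and −0.34, and Dnajb9 lowest after DEP, at −0.37.

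Over the 10 genes, 4 were higher and 6 lower than in air after CB, and the same counts were found after DEP. With median centring 0 were higher and 10 lower after CB, and 4 higher and 6 lower after DEP. In that setting 1.53% of all features passed limma in CB minus air. The share of all features lower after CB with median centring is not given here, so these counts are not read as a result about the genes. With the loess ratios the median difference was −0.02 in both comparisons, and over all features it was 0.00. Sil1 and Hspa5 were the 2 lowest of the 10 after CB, and 1.13% and 1.71% of all features had a still lower difference. Because Sil1 was included for this comparison, its place among the genes and features follows from that choice. Limma passed 0% of the 18688 features in CB minus air, in DEP minus air and in CB minus DEP. An unadjusted p under 0.05 was reached by 1110, 900 and 643 features. Between CB and DEP the members differed by at most 0.27 on the log2 scale (Sdf2l1, −0.27, standard error 0.20).

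Secretory cells other than hepatocytes also express these chaperones, so their markers were compared beside the members. Of 15 markers of the pancreatic acinar cell, 2 were higher and 13 lower after CB, with a median of −0.07. After DEP 12 were higher and 3 lower, with a median of 0.07. Their summed Cy5 signal was 7802 to 11819 in air, 7608 to 12380 in CB and 7675 to 17979 in DEP mice. Of 9 markers of B cells and plasma cells, 6 were higher after CB and 5 after DEP. Their summed signal was 6132 to 8613 in air and 6702 to 8680 in DEP mice. In CB mice it was 6046 to 67470 with a median of 7233. The mean log2 ratio of these markers was −1.60 ± 0.23 (SD) in air and −1.49 ± 0.21 in CB mice, a spread no wider in CB. The 9 hepatocyte markers had a median difference of −0.15 after CB and −0.05 after DEP, and 4 of them were saturated on at least 1 array. The 5 erythroid markers had medians of −0.11 and −0.19. No marker passed limma in either comparison, and the part of other cells in the values of the 10 genes was not tested.

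The wider machinery was taken from 6 lists of genes that are not among the 10, and 0 genes of any list passed limma in either comparison with air. Of the 14 partners of BiP and translocon subunits measured, 6 were higher and 8 lower after CB, with a median of −0.06. Of the 10 genes of the glycoprotein folding cycle, 9 were higher after CB and 8 after DEP, with medians of 0.10 and 0.12. Canx, the membrane partner of Calr, differed by 0.07 after CB and 0.15 after DEP. The 20 disulfide and proline isomerases had medians of −0.07 and −0.03, and the 16 genes of ER-associated degradation −0.10 and −0.04. The 9 stress sensors and their proteases had medians of −0.12 and −0.06. Among these Creb3l3, a liver transcription factor released from the ER membrane, differed after CB by −0.40 (standard error 0.14, limma adjusted p = 0.788). The 18 genes of the PERK branch had medians of 0.01 and −0.02. In that branch Ddit3, which encodes CHOP, differed by −0.11 after CB and 0.40 (standard error 0.31) after DEP. The 17 cytosolic and mitochondrial chaperones used for comparison had medians of −0.04 and −0.05. The median of all features was 0.00 in both comparisons, and no list is called changed.

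The covariation of the 10 genes was examined over the 23 mice after the group means had been taken out, so that group differences do not enter it. Of the 45 pairs of genes, 10 had a Pearson r of 0.5 or more (22.2%), against 2.56% of the pairs of all features. Correlations were positive in 30 of 45 pairs and the median r was 0.11. The pairs share arrays and are not independent. Neither Hspa5 nor Xbp1 was in any of the 10 pairs, all taken from the loess ratios. With median centring 5 of the 9 genes had an r of 0.5 or more with Hspa5. In that setting 15.3% of all features passed limma with Hspa5 as the covariate, so the share of 2.56% from the loess ratios is no background for it. The r of Hspa5 with the other 9 genes, as the plot of correlations shows, was highest for Dnajb11 (0.45) and lowest for Pdia4 (−0.35).

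**Figure D4:**
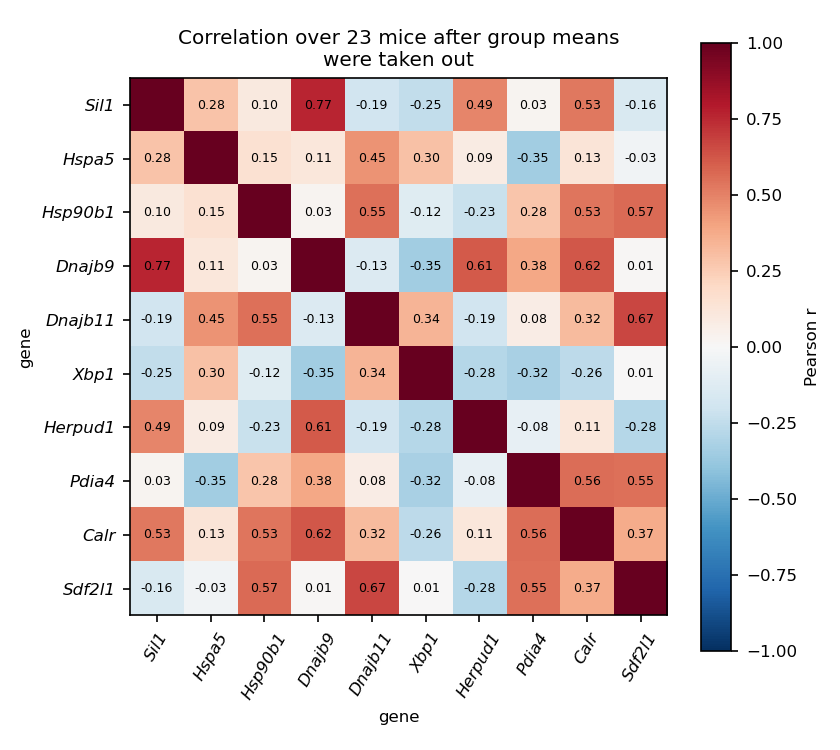
Pearson correlation between each pair of the 10 genes over 23 mice, computed from deviations from the group means (colour scale from −1 to 1, value printed in each cell). The darkest cells off the diagonal are Sil1 with Dnajb9 (0.77) and Dnajb11 with Sdf2l1 (0.67), and in these loess ratios Hspa5 and Xbp1 stay below 0.5 with every other gene.

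The closest pair was Sil1 and Dnajb9, with r = 0.77 and Spearman's rho = 0.69 over 23 mice. The p of r was 0.00031 and that of rho 0.00123 (two-sided permutation tests within groups, 100000 draws, unadjusted, 45 pairs examined). Mouse DEP 51 was highest for both genes, at 0.31 and 1.01 above its group mean, and DEP 835435 was low for both, at −0.23 and −0.64. Without these 2 mice, the farthest from the median of the Sil1 deviations, r was 0.67. It was 0.72 in air, 0.37 in CB and 0.94 in DEP mice, 0.61 in the second round and 0.97 in the last. With Sil1 as the covariate in limma, Dnajb9 ranked 6 among 18687 features, but 0% passed and the adjusted p was 0.103. With Dnajb9 as the covariate Sil1 had an adjusted p of 0.0228 from limma, in a fit that passed 8.83% of all features. The pair was not seen in single channels: r was −0.07 in Cy5 alone and −0.35 in Cy3 alone. With the deposited ratios it was 0.55, and without spots dim in both channels 0.79 (n = 20).

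Brightness of the array moved with some of the genes. Over the 23 mice, again after the group means were taken out, the log2 median Cy5 signal had r = 0.44 with Sil1, 0.50 with Dnajb9 and 0.56 with Herpud1. Of all features 95% had an r with brightness under 0.48. The number of saturated features, on the log2 scale, had r = 0.62 with Sil1, 0.75 with Dnajb9, 0.59 with Herpud1 and 0.50 with Calr. Its r over all features is not given here, and it was not taken out of the pairs. With the median Cy5 signal taken out, the r of Sil1 and Dnajb9 was 0.70 and that of Dnajb9 and Herpud1 fell from 0.61 to 0.46. The pair Dnajb9 and Herpud1 also had r = 0.66 in Cy3 alone, where every array carried the same reference RNA, and r = 0.65 in Cy5 alone. The part of brightness in these correlations beyond these values was not tested.

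The next pair was Dnajb11 and Sdf2l1, whose proteins form a complex in the ER lumen. Their r was 0.67 and rho 0.60 (permutation p = 0.00078 and 0.0050, unadjusted). The r was 0.59 in air, 0.64 in CB and 0.81 in DEP mice, and 0.65 without DEP 56 and CB 445, the mice farthest from the median of the Dnajb11 deviations. DEP 56 was the highest of its group for both genes, at 1.24 for Dnajb11 and 0.88 for Sdf2l1. With brightness taken out r remained 0.67, and it was 0.57 with the deposited ratios. In limma over all features with Dnajb11 as the covariate, which passed 0.118% of them, the adjusted p of Sdf2l1 was 0.112. In single channels r was 0.18 in Cy5 and −0.14 in Cy3.

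**Figure D5:**
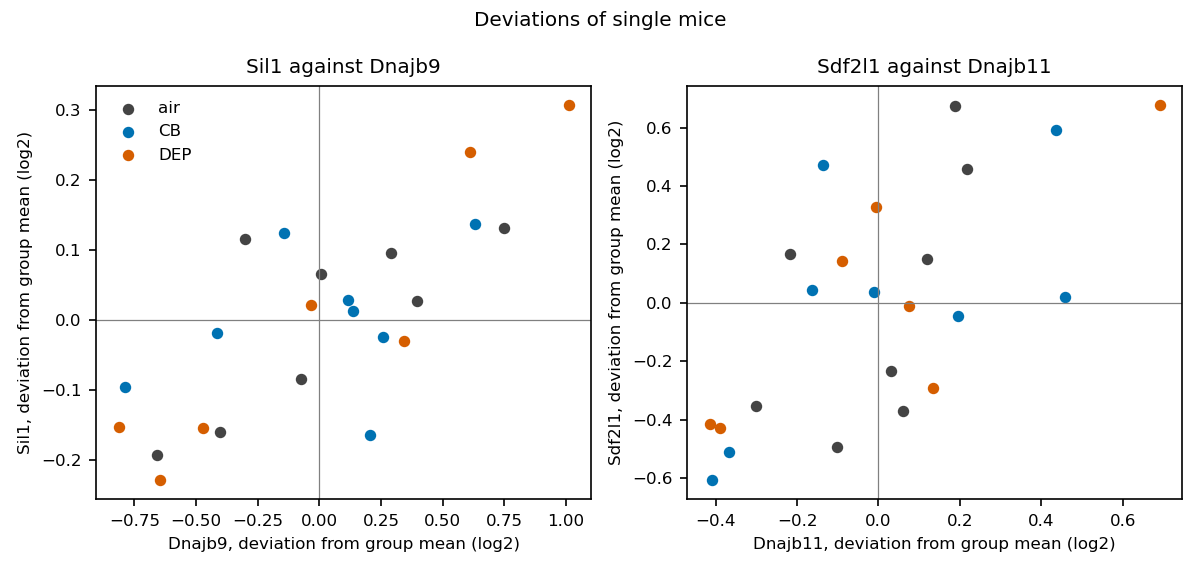
Deviation of each mouse from its group mean on the log2 scale, Sil1 against Dnajb9 (left, r = 0.77) and Sdf2l1 against Dnajb11 (right, r = 0.67). Points are the 23 mice, coloured by group, and grey lines mark the group means; DEP 51 is at the upper end on the left and DEP 56 on the right.

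The other pairs of 0.5 or more formed a chain through Calr, Dnajb9, Hsp90b1 and Pdia4. Calr had r = 0.62 with Dnajb9, 0.56 with Pdia4, 0.53 with Hsp90b1 and 0.53 with Sil1. Hsp90b1 had r = 0.57 with Sdf2l1 and 0.55 with Dnajb11, and Pdia4 had r = 0.55 with Sdf2l1. The r of Calr and Hsp90b1 was about as high in the liver channel (0.51) as in the reference channel (0.53). In Cy5 alone r was −0.41 for Calr and Dnajb9 and −0.10 for Calr and Pdia4. For Hsp90b1 it was −0.07 with Sdf2l1 and −0.03 with Dnajb11 in that channel. Calr and Sil1 had 0.49 in Cy5 alone, and Pdia4 and Sdf2l1 had 0.36. With the deposited ratios the r of Pdia4 was 0.37 with Calr and 0.30 with Sdf2l1. Hsp90b1 and Dnajb11 fell to 0.29 without the 2 mice farthest from the median of the Hsp90b1 deviations (DEP 56 and CB 835052). The Sil1 and Calr r was 0.13 in the second round and 0.96 in the last.

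With Hspa5 as the covariate, limma passed 0% of 18687 features, and 1356 had an unadjusted p under 0.05. Dnajb11 had the smallest adjusted p of the members, 0.648. Over the 9 members the median r with Hspa5 was 0.13 and 7 were above 0, against a median of −0.01 and 48.1% above 0 over all features. This count of 7 depended on the processing. It was 4 with normexp background correction, 5 in Cy5 alone and 3 in Cy3 alone, but 8 with the deposited ratios and 9 with median centring. In air mice the r of Hspa5 and Sil1 was 0.89, in CB mice 0.32 and in DEP mice −0.07, and the difference between groups was not tested. Over all 23 mice this r was 0.28, and 0.48 (n = 19) without spots dim in both channels. With median centring, 15.3% of the features passed, among them 5 of the 9 members: Dnajb11 (r = 0.73), Calr (0.71), Sil1 (0.68), Hsp90b1 (0.60) and Herpud1 (0.56).

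The genes most like Hspa5 over the 23 mice were Creb3 (r = 0.81), Ier2 (0.80), Uchl5 (0.77), Acadm (0.75), Kat8 (0.73), Zfpm1 (0.73), Rabac1 (0.72) and Mtmr4 (0.72). Their adjusted p-values from limma were 0.338 or higher. The list genes named here are those of smallest p in their list. The secreted ER protein Manf had r = 0.70 with Hspa5, the disulfide isomerase Pdia3 0.67, Creld2 0.63 and the ER lumen protein Erp29 0.62. Dnajc3, a further DnaJ partner of BiP, was at 0.52 and the ubiquitin ligase Syvn1 at 0.50. The smallest adjusted p among these was 0.407. The lists as a whole had lower medians of r with Hspa5, at 0.18 for BiP partners, 0.15 for the glycoprotein cycle, 0.12 for isomerases, 0.10 for degradation, 0.08 for the PERK branch, −0.05 for stress sensors and 0.11 for cytosolic chaperones. In the PERK branch the highest was Atf5 at 0.47, and among cytosolic chaperones Hsph1 was at 0.56. The genes most like Sil1 were H2-M2 (0.82), Gopc, Hspb9, Eif4ebp1 and Ppp2r5a (0.77 each), with adjusted p-values of 0.113 or higher from limma.

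The last round of exposure was compared with the second, with the group as a term, because the rounds held the groups in different numbers. Limma passed 0% of the 18688 features, and 1203 had an unadjusted p under 0.05. Among the 10 genes 3 had an unadjusted p under 0.05. The last minus second round difference of Sdf2l1 was −0.55 (standard error 0.17, adjusted p = 0.702) and that of Dnajb11 −0.36 (standard error 0.14, adjusted p = 0.741). The difference of Herpud1 was 0.36 (standard error 0.17, adjusted p = 0.774). The other 7 lay between −0.20 and 0.02. With the round as a block the DEP difference of Sdf2l1 was 0.46 in place of 0.32, and that of Herpud1 −0.39 in place of −0.26.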

How the data were processed

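The authors scanned 1 array per mouse and deposited the intensity of each spot in Cy5 (liver) and Cy3 (reference) on a linear scale, with flags of absent spots. The authors also deposited lowess-normalized log2 ratios, and the submitters' processing notes name R 2.4.1. In the series table and the array tables these ratios differed by over 0.001 in 0 values. Here the intensities were normalized by loess within each array (limma 3.58.1, R 4.3.3). Features with a listed gene (18688 of 22575) were kept, with no filter on signal. Groups came from the labels. One limma model (lmFit, eBayes) held the 3 groups, and p-values were adjusted by Benjamini-Hochberg over all features at 0.05. Covariation was fitted with the covariate beside the group terms. Permutation tests used numpy 2.4.6, with ranks from scipy 1.17.1. The genes, lists and tests were chosen with earlier results of these data known. Named were the 10 genes, the 8 genes most like Hspa5, the 5 most like Sil1 and up to 3 per list with the smallest p for covariation with Hspa5. Pairs of genes were named by their r after it was seen. The brightest feature stood for a listed gene. Spots dim in both channels were at least 1 log2 unit below their feature's median in both quantile-normalized channels. No pair of arrays was identical. The labels do not say whether mice shared cages. The tests were tested on simulated data with known changes. Alternatives were the deposited ratios, normexp (offset 50), median centring, single channels, a filter on dim features, round or array set as a block, array weights, the second round alone, other covariates and leaving out each mouse. The number of arrays limits the precision.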

Additional observations from a re-analysis of the deposited data

How the results depend on the processing

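No paired analysis was possible because the numbers in the labels name different mice in each group. Of the counts of features past the threshold, all 0 except for liver against reference, median centring gave 285 for CB minus air, 2867 for covariation with Hspa5 and 1 for the last against the second round. Covariation with Hspa5 passed 304 features in the Cy5 signal alone and 424 in the Cy3 signal alone. The array set as a block gave 4 features for the round, and array weights gave 1 for CB minus air. With another gene as the covariate the counts were 1650 for Dnajb9, 223 for Calr, 58 for Herpud1, 22 for Dnajb11, 5 for Pdia4 and 2 for Xbp1. Leaving out 1 mouse at a time gave 0 to 1 features for CB minus air and for the round, and 11879 to 12365 for liver against reference (12315 with all mice). Single signals hold no ratio to the reference and were not run for that comparison. Against the reference, Dnajb11 turned to −0.20 with the deposited ratios, Hspa5 to 0.0085 with median centring and Sdf2l1 to 0.14 in the second round alone. With the deposited ratios Calr no longer passed (0.07) and Sdf2l1 did (−0.42). Between rounds, Herpud1 was at −0.31 and Sdf2l1 at 0.43 in the Cy3 signal alone. The 7 members not named for the round each changed sign under at least 1 setting. The cause of these changes was not tested. Local background was not used here, and saturated or dim spots limit the values of the genes named with them.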
